A study of Mus musculus with 8 samples.

Results

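The genes described here are 10 protein-coding genes with little known role in regulatory T cells (Treg): Tktl1, Eya2, Edaradd, Rapsn, Armc2, Cables1, Rln3, Plk2, B3galt5 and Bco2. They were chosen by their measured values, because their expression in these RNAseq libraries was clearly higher in Treg of the bone marrow (BM-Treg) than in Treg of the spleen (SP-Treg), with no overlap between libraries. Their levels and fold changes are therefore given as a description, with no test. The 10 genes are part of 38215 genes listed, of which 13397 had enough counts to be tested, the 10 among them.

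The libraries came from FoxP3+ cells sorted from naive B6.FoxP3-GFP mice aged 12 weeks, in which cells that express FoxP3 carry a green fluorescent protein. The labels give the genotype as C57Bl/6 for all. There were 4 libraries of BM-Treg and 4 of SP-Treg, and neither group was treated. By the labels, BM-Treg replicates 1, 2 and 3 were from females and belonged to batch 1, while males of batch 3 gave BM-Treg replicate 4 and all 4 libraries of SP-Treg. Tissue therefore goes largely with sex and batch, and only BM-Treg replicate 4 can be set against SP-Treg within a batch. The methods of the study give 4 biological replicates per condition, while the legend of its RNAseq heatmap gives 3 per tissue. Its methods also name female mice unless otherwise indicated, whereas the labels include males. The sources do not say whether a library came from 1 mouse or from several. The depth, as the sum of expected counts over genes, ran from 12427136 to 21921252, and its median was 19025998 for BM-Treg and 13108535 for SP-Treg.

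The libraries were first checked against their labels. The Treg and T cell genes Foxp3, Il2ra, Ctla4, Ikzf2, Tnfrsf18, Cd4 and Cd3e were present in every library, and their summed CPM (counts per 1000000, on library sizes normalised by TMM) was 7457, 8059, 8669 and 8855 for BM-Treg replicates 1 to 4 and 8411, 8158, 8957 and 8480 for SP-Treg replicates 1 to 4. Ikzf2 was the most abundant of these genes by CPM. The sex label did not hold for 2 libraries. Xist, which is expressed from the inactive X chromosome of females, stood at 1229, 2267 and 2272 CPM in BM-Treg replicates 1, 2 and 3 and at 2.59 CPM in BM-Treg replicate 4. The Y-linked genes Ddx3y, Eif2s3y, Kdm5d and Uty, however, summed to 154 and 63.3 CPM in BM-Treg replicates 1 and 2, both labelled female, against 2.01 CPM in replicate 3 and 234 CPM in replicate 4. These sums were 55.6% and 22.9% of the SP-Treg mean. The libraries labelled BM-Treg replicates 1 and 2 thus held transcripts of both sexes, and results are also given without them.

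The 10 genes belong to no common pathway. They encode metabolic and glycan-building enzymes, a secreted peptide hormone, adaptors of receptors at the skin and at the neuromuscular junction, regulators of the cell cycle, a transcriptional coactivator and an armadillo repeat protein. Most are known from tissues other than the immune system, such as brain, muscle, gut, testis and the appendages of the skin. Treg in the bone marrow are known to support the stem-cell niche there and to respond to its cytokines.

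Of the 10 genes, 8 passed the edgeR threshold of an adjusted p of 0.05 that 1172 of the 13397 genes tested passed (8.75%), with 499 genes higher in BM-Treg (3.72%) and 673 lower (5.02%). By the unadjusted p from edgeR, 23.3% of all genes tested were under 0.05. Cables1 and Plk2 were the members that did not pass the adjusted threshold. Nothing is read from this count, since the genes were chosen on the same contrast. All 10 had every BM-Treg library above every SP-Treg library, which was so for 1021 of all genes tested (7.62%). The selection took only some of the genes with such values: 36 genes tested had libraries of the tissues apart and a log2 fold change at least as large as the lowest of the 10, and 26 of these were not among them. The log2 fold changes of the 10 genes ran from 1.52 to 1.83, with a median of 1.67, beside a median of -0.01 over all genes tested. In bulk libraries, more cells that express a gene and more RNA per cell cannot be told apart.

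**Figure D1:**
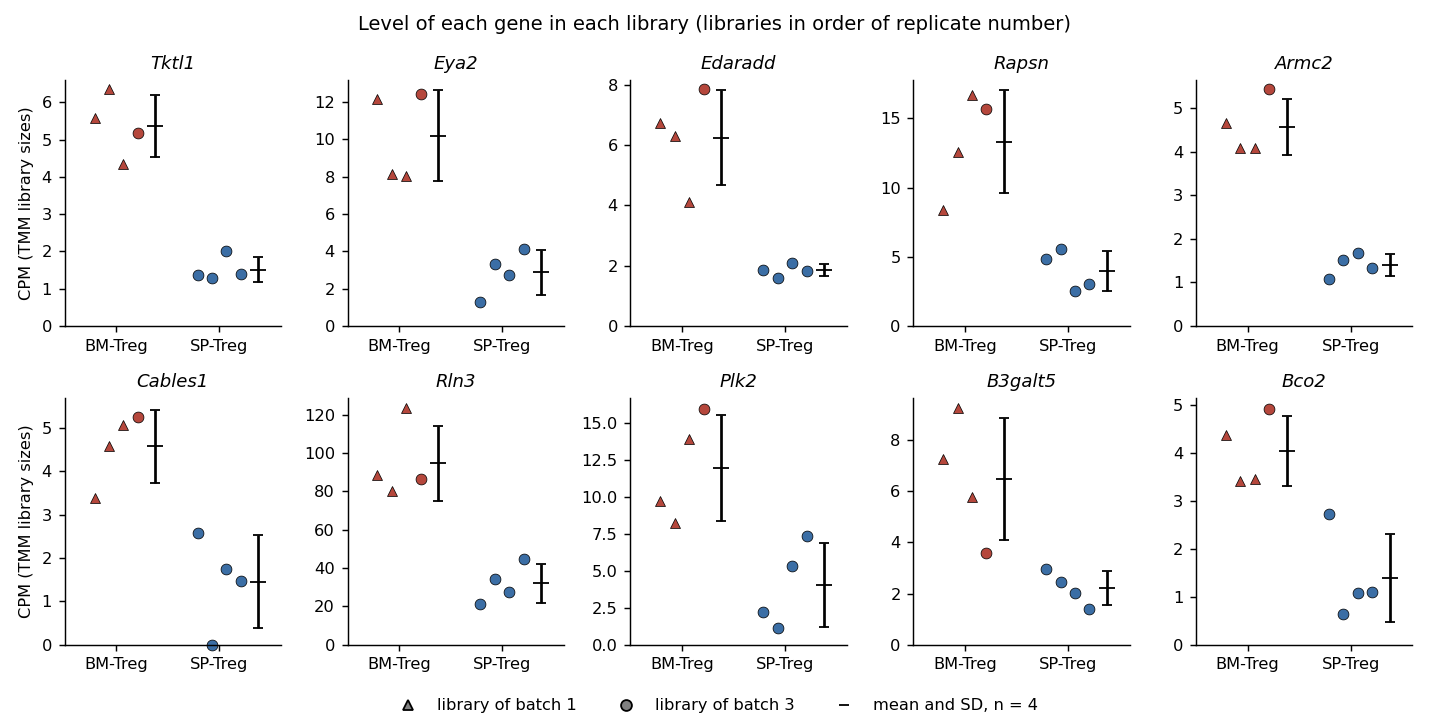
Level of each of the 10 genes in each library, as CPM on a linear axis from 0, with BM-Treg in red and SP-Treg in blue, triangles for batch 1 and circles for batch 3, and the mean and SD of 4 libraries in black. Every red point lies above every blue point of the same gene, narrowly for Plk2 (8.26 against 7.34 CPM) and B3galt5 (3.59 against 2.95 CPM), and Cables1 had 0 CPM in SP-Treg replicate 2.

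Among the signalling genes, Rln3 was by far the most abundant. Rln3 (ENSMUSG00000045232, chr8:84043067-84044979, minus strand) encodes relaxin 3, a secreted peptide of the insulin and relaxin family known mainly as a neuropeptide of the brainstem. In BM-Treg replicates 1 to 4 it stood at 88.7, 79.9, 123 and 86.4 CPM, and in SP-Treg replicates 1 to 4 at 21.3, 34.2, 27.2 and 44.8 CPM. BM-Treg replicate 3 was the highest, the other BM-Treg libraries lay close together, and the lowest BM-Treg library was 1.78 times the highest SP-Treg library, SP-Treg replicate 4. BM-Treg averaged 94.6 ± 19.6 CPM and SP-Treg averaged 31.9 ± 10.1 CPM (SD, n = 4 each), for a log2 fold change of 1.57 (SE 0.22). Scaled by length as FPKM, which allows levels of different genes to be compared, Rln3 reached 242 ± 53.1 (SD, n = 4) in BM-Treg, above 98.1% of the protein-coding genes tested, and 77.6 ± 23.0 (SD, n = 4) in SP-Treg, above 93.3%. Its transcript in the GENCODE annotation, whose ends differ from those of the deposited gene table, is short, with 2 exons and 634 bases, and held all of its counts in every library.

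The promoter of Rln3 is shown because this gene had the highest level of the 10, with those of Tktl1 and Plk2 for comparison. The sequences are from RefSeq on build GRCm38.p6 and run from 250 bases before to 50 bases after the start site. RefSeq promoters were matched by symbol for 6 of the 10 genes (9 promoters), and there was none in the table for Rapsn, Eya2, Armc2 and Cables1. On both strands, 6 motifs were searched: TGANTCA for AP-1, TTCNNNGAA for STAT factors, GTAAACA for forkhead factors, TGTGGT for RUNX, AGATAA for zinc-finger factors of the GATA family and TGACGTCA, the cyclic AMP response element (CRE). Capitals mark each match. The promoter of Rln3 (chr8:84044930-84045229, minus strand) held AGATAA on each strand, a motif found in 11.2% of the 32851 promoters of the table. The promoter of Tktl1 (chrX:74177009-74177308, plus strand) held AGATAA once, and it also held TGTGGT, the latter found in 16.8% of promoters. The promoter of Plk2 (chr13:110394794-110395093, plus strand) held TGACGTCA, found in 1.79% of promoters.
Rln3: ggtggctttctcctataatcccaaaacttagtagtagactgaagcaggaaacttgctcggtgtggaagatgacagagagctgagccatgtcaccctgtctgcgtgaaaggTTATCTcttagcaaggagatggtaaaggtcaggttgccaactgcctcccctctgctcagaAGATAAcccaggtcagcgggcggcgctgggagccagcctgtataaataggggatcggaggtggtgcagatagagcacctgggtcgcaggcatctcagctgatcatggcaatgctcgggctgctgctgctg
Tktl1: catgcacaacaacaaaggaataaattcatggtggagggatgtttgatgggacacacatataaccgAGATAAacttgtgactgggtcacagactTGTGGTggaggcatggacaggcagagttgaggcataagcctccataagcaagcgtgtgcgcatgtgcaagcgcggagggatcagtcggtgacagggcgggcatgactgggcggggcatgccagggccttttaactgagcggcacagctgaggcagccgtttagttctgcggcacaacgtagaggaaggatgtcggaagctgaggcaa
Plk2: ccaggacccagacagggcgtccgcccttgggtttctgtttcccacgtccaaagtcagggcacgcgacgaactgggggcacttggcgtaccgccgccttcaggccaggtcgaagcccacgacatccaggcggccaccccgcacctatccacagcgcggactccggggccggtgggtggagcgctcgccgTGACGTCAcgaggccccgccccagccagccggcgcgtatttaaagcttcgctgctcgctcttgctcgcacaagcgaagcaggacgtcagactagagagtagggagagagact

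Of the other promoters, those of B3galt5 held TTCNNNGAA in 1 and TGTGGT in another of 3, and those of Edaradd and Bco2 held none of the 6 motifs. TGANTCA (7.81% of all promoters) and GTAAACA (3.65%) were found in no promoter of these genes, and TTCNNNGAA is found in 8.30% of all promoters. A match is a description of letters, and the lack of one says only that the letters are not in this window.

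Of the 8 other genes listed for the relaxin family and its receptors, 3 passed the filter on low counts, and 4 had 0 counts in every library: Rln1 and the receptors Rxfp1, Rxfp2 and Rxfp3, the last of which is the main receptor of relaxin 3. At these depths, 3 counts correspond to between 0.131 and 0.251 CPM per library, which covers counting error only. Insl3, the related peptide of Leydig cells, had the highest FPKM of the list, 26.8 ± 8.88 in BM-Treg and 29.0 ± 2.36 in SP-Treg (SD, n = 4 each), and its values are uncertain, since it overlaps the much-transcribed kinase gene Jak3 on the same strand (mean CPM 93.2 ± 12.99 in BM-Treg against 113 ± 5.96 in SP-Treg, SD, n = 4 each). Insl6 had 6.26 ± 2.59 and 5.04 ± 2.31 FPKM (SD, n = 4 each). Rxfp4, another receptor that relaxin 3 can bind, stood at 2.85, 2.22, 1.23 and 3.59 CPM in BM-Treg and at 0.647, 1.99, 1.59 and 0.440 CPM in SP-Treg, and its libraries overlapped (log2 fold change 1.07, SE 0.50, edgeR adjusted p = 0.208). Of the 3 genes of this list that were tested, edgeR called 0, with 1 at an unadjusted p under 0.05 and 0 by DESeq2, limma-voom or limma-trend. Their median log2 fold change was 0.25.

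Il27ra, which encodes the receptor chain for interleukin 27, lies next to Rln3 on the same strand, 491 bases beyond its 3′ end by the deposited gene coordinates. It stood at 102, 127, 131 and 140 CPM in BM-Treg and at 129, 140, 139 and 126 CPM in SP-Treg. These levels overlapped between the tissues (log2 fold change -0.09, SE 0.11, edgeR adjusted p = 0.65). Those of Rln3 did not, which was fixed by its selection, so nothing is read from the contrast. Under the 18 other settings with a test Il27ra was never called, and its adjusted p ran from 0.479 to 0.938.

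Edaradd (ENSMUSG00000095105, chr13:12471209-12520450, minus strand) encodes the adaptor that links the ectodysplasin receptor EDAR to NF-κB signalling in developing hair, teeth and sweat glands. It stood at 6.73, 6.30, 4.11 and 7.85 CPM in BM-Treg and at 1.87, 1.59, 2.09 and 1.83 CPM in SP-Treg. The SP-Treg libraries lay close together, and the lowest BM-Treg library, replicate 3, was 1.97 times the highest of them. The log2 fold change was 1.75 (SE 0.28). Per length, Edaradd had the lowest level of the 10 genes in both tissues, with 0.793 ± 0.181 FPKM in BM-Treg and 0.225 ± 0.0265 FPKM in SP-Treg (SD, n = 4 each). Its receptor Edar had 0 counts in every library, and the ligand Eda and the other receptor Eda2r reached at most 4 and 1 counts in a library. Downstream genes shared with other receptors were well expressed, and Tab2 had 142 ± 6.19 FPKM in BM-Treg and 127 ± 16.7 FPKM in SP-Treg (SD, n = 4 each). Traf1 (80.8 ± 6.29 against 90.01 ± 5.35 FPKM) and Ikbkb (80.6 ± 9.55 against 72.9 ± 7.45 FPKM) came next. Of 12 genes listed for this pathway 9 were tested and edgeR called 0, with 2 at an unadjusted p under 0.05 (Traf1 and Traf6) and 0 by DESeq2, limma-voom or limma-trend. Their median log2 fold change was -0.10.

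Rapsn (ENSMUSG00000002104, chr2:91035620-91045729, plus strand) encodes rapsyn, which clusters acetylcholine receptors at the neuromuscular junction. It stood at 8.37, 12.6, 16.7 and 15.7 CPM in BM-Treg and at 4.81, 5.58, 2.51 and 3.01 CPM in SP-Treg. BM-Treg replicate 1 was the lowest of its tissue and still 1.5 times SP-Treg replicate 2, the highest spleen library. The log2 fold change was 1.74 (SE 0.28). Rapsn came next after Rln3 in level per length, with 12.4 ± 3.82 FPKM in BM-Treg and 3.58 ± 1.52 FPKM in SP-Treg (SD, n = 4 each), though its BM-Treg libraries overlapped those of Eya2, the next gene in that order.

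Few of the genes listed around Rapsn passed the filter on low counts. Agrn, which encodes the nerve-derived signal agrin, was lower in BM-Treg, with 6.84, 6.85, 6.00 and 7.18 CPM in BM-Treg and 11.7, 12.3, 10.4 and 9.25 CPM in SP-Treg. The libraries did not overlap, and all 4 of BM-Treg lay below those of SP-Treg (log2 fold change -0.70, SE 0.18, edgeR adjusted p = 0.0224). The call was lost without BM-Treg replicate 1 (adjusted p by edgeR 0.0568), 2 (0.0635) or 3 (0.0665) and without SP-Treg replicate 1 (0.0629) or 2 (0.0708), and over 18 other settings the adjusted p ran from 0.00342 to 0.279. Musk, the kinase that agrin activates, and the receptor subunit Chrnd had 0 counts in every library. Chrnb1, a subunit of the muscle receptor, had 5.07 ± 0.336 FPKM in BM-Treg and 4.96 ± 1.57 FPKM in SP-Treg (SD, n = 4 each). Chrne, another subunit, stood at 2.41, 1.62, 3.76 and 1.92 CPM in BM-Treg and at 0.862, 1.67, 0.502 and 1.17 CPM in SP-Treg, and its libraries overlapped (log2 fold change 1.21, SE 0.44, edgeR adjusted p = 0.104). Of the 9 genes listed around Rapsn 3 were tested, edgeR called 0 higher and 1 lower, 2 were at an unadjusted p under 0.05 (Agrn and Chrne), and their median log2 fold change was 0.06.

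Plk2 and Cables1 act on the cell cycle and, in neurons, on synapses and axons. Plk2 (ENSMUSG00000021701, chr13:110395044-110400844, plus strand) encodes a polo-like kinase induced by growth factors and stress, and its promoter is the one with TGACGTCA above. It stood at 9.74, 8.26, 14.0 and 16.0 CPM in BM-Treg and at 2.23, 1.12, 5.35 and 7.34 CPM in SP-Treg. Both tissues were spread wide, and BM-Treg replicate 2, the lowest, was only 1.13 times SP-Treg replicate 4, the highest. The mean was 11.98 ± 3.59 CPM for BM-Treg against 4.01 ± 2.85 CPM for SP-Treg (SD, n = 4 each), giving a log2 fold change of 1.57 (SE 0.49). In FPKM, Plk2 had 4.47 ± 1.199 in BM-Treg and 1.42 ± 0.984 in SP-Treg (SD, n = 4 each).

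None of the other polo-like kinases was called. Plk3, a stress-response kinase, had 19.0 ± 4.43 FPKM in BM-Treg and 18.7 ± 1.17 FPKM in SP-Treg (log2 fold change -0.02). Plk4, which starts the doubling of centrioles, had 12.6 ± 2.27 and 11.5 ± 1.51 FPKM (log2 fold change -0.04), and the mitotic kinase Plk1 had 9.02 ± 2.70 and 7.61 ± 1.47 FPKM (log2 fold change 0.17; SD, n = 4 each). Plk5 had 0 counts in every library. Of the 4 other family members listed 3 were tested and edgeR called 0, with 0 at an unadjusted p under 0.05 and 0 by DESeq2, limma-voom or limma-trend. Their median log2 fold change was -0.02.

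Cables1 (ENSMUSG00000040957, chr18:11839220-11945627, plus strand) encodes an adaptor that binds cyclin-dependent kinases and the kinase Abl1. It stood at 3.39, 4.58, 5.08 and 5.26 CPM in BM-Treg and at 2.59, 0, 1.76 and 1.47 CPM in SP-Treg. SP-Treg replicate 2 had no count, where 3 counts would have been 0.239 CPM, and BM-Treg replicate 1 was 1.31 times SP-Treg replicate 1. BM-Treg averaged 4.58 ± 0.839 CPM and SP-Treg averaged 1.45 ± 1.08 CPM (SD, n = 4 each), for a log2 fold change of 1.64. Its SE of 0.63 was the largest of the 10 genes, and without SP-Treg replicate 2 the log2 fold change was 1.23.

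Around Cables1, 10 genes were listed and tested, of which 0 were called higher and 1 lower, with a median log2 fold change of -0.09. By edgeR, 3 were at an unadjusted p under 0.05 (Cables2, Cdk2 and Cdk5r1). The one called was Cdk5r1, which encodes the activator p35 of the kinase Cdk5. It stood at 2.30, 2.96, 4.64 and 1.75 CPM in BM-Treg and at 7.47, 4.46, 6.77 and 6.09 CPM in SP-Treg. BM-Treg replicate 3 lay above SP-Treg replicate 2, so the libraries overlapped (log2 fold change -1.07, SE 0.31, edgeR adjusted p = 0.0424). The call was lost without BM-Treg replicate 1 (adjusted p by edgeR 0.117), 2 (0.0999) or 4 (0.0875) and without SP-Treg replicate 1 (0.121), 3 (0.0820) or 4 (0.0736), and over 18 other settings the adjusted p ran from 0.0128 to 0.269. The relative Cables2 had 16.2 ± 1.35 FPKM in BM-Treg and 12.1 ± 1.24 FPKM in SP-Treg, and it was not called. In CPM its BM-Treg libraries all lay above those of SP-Treg (log2 fold change 0.34, edgeR adjusted p = 0.103). Cyclin A2 (Ccna2), at 30.1 ± 8.39 and 34.0 ± 5.68 FPKM, and Abl1, at 16.4 ± 1.44 and 14.3 ± 2.26 FPKM (SD, n = 4 each), were not called either.

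Eya2 (ENSMUSG00000017897, chr2:165595032-165771727, plus strand) encodes a transcriptional coactivator that is also a phosphatase, known from the development of eye, muscle and ear. It stood at 12.2, 8.15, 8.01 and 12.4 CPM in BM-Treg and at 1.29, 3.35, 2.76 and 4.11 CPM in SP-Treg. BM-Treg replicates 1 and 4 were high and replicates 2 and 3 lower, SP-Treg replicate 1 was the lowest, and the tissues were 1.95 times apart at their closest libraries. Mean levels were 10.2 ± 2.44 CPM for BM-Treg against 2.88 ± 1.19 CPM for SP-Treg (SD, n = 4 each), giving a log2 fold change of 1.82 (SE 0.30).

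Few of the genes listed around Eya2 were well expressed. Of 11 related genes listed only Eya3 and Six5 passed the filter on low counts, and Eya4, Six2, Six6 and Dach1 had 0 counts in every library. Eya3, another coactivator of the family, had 29.5 ± 4.17 FPKM in BM-Treg and 26.7 ± 3.93 FPKM in SP-Treg, well above Eya2 with 6.92 ± 2.52 and 2.07 ± 0.905 FPKM (SD, n = 4 each). Six5, a homeobox factor, stood at 0.383, 2.36, 1.53 and 1.002 CPM in BM-Treg and at 4.45, 3.43, 2.42 and 4.04 CPM in SP-Treg. All 4 BM-Treg libraries lay below those of SP-Treg, though narrowly for BM-Treg replicate 2 (log2 fold change -1.42, SE 0.45, edgeR adjusted p = 0.0626). edgeR thus called 0 of the 2, with 1 at an unadjusted p under 0.05, 1 by DESeq2, 1 by limma-voom and 0 by limma-trend. Six5 was called by edgeR without BM-Treg replicate 2 (adjusted p = 0.0381) and without a filter (edgeR adjusted p = 0.0306). Over 17 other settings its adjusted p ran from 0.0221 to 0.258.

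Armc2 (ENSMUSG00000071324, chr10:41914990-42018442, minus strand) encodes an armadillo repeat protein needed to build the sperm tail. It stood at 4.65, 4.08, 4.07 and 5.43 CPM in BM-Treg and at 1.08, 1.51, 1.67 and 1.32 CPM in SP-Treg. Libraries of a tissue lay close together, and at 2.44 times this gene had the widest gap of the 10 between the lowest BM-Treg and the highest SP-Treg library. Mean levels were 4.56 ± 0.642 CPM for BM-Treg against 1.40 ± 0.256 CPM for SP-Treg (SD, n = 4 each), giving a log2 fold change of 1.70 (SE 0.29). Per length its level was low, with 0.975 ± 0.0904 FPKM in BM-Treg and 0.275 ± 0.0351 FPKM in SP-Treg (SD, n = 4 each).

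Of 9 other armadillo repeat containing genes listed 8 were tested, edgeR called 1 higher and 0 lower, and the median log2 fold change was 0.05. Armc4, a gene of motile cilia, had 0 counts in every library. The gene called was Armc5, known for overgrowth of the adrenal gland when mutated, with 14.4, 14.2, 17.1 and 16.6 CPM in BM-Treg and 9.03, 11.5, 11.05 and 9.05 CPM in SP-Treg. The libraries did not overlap (log2 fold change 0.61, SE 0.16, edgeR adjusted p = 0.0258). The call was lost without BM-Treg replicate 2 (adjusted p by edgeR 0.0503), 3 (0.0761) or 4 (0.0509) and without SP-Treg replicate 1 (0.0624) or 4 (0.0645), and over 18 other settings the adjusted p ran from 0.00469 to 0.138. The family members with the highest level were Armc7 at 21.5 ± 1.70 and 16.5 ± 1.26 FPKM, Armc10 at 19.1 ± 3.12 and 16.9 ± 3.09 FPKM, and Armc1 at 14.5 ± 2.74 and 17.1 ± 3.14 FPKM in BM-Treg and SP-Treg (SD, n = 4 each). None of these was called.

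The remaining genes, Tktl1, B3galt5 and Bco2, encode enzymes or relatives of enzymes. Tktl1 (ENSMUSG00000031397, chrX:74177259-74208500, plus strand) encodes a transketolase-like protein, related to the enzyme that moves carbon units between sugars in the pentose phosphate pathway. It stood at 5.58, 6.35, 4.33 and 5.18 CPM in BM-Treg and at 1.36, 1.27, 2.01 and 1.39 CPM in SP-Treg. SP-Treg replicate 3 was above the other SP-Treg libraries, and BM-Treg replicate 3, the lowest of its tissue, was still 2.16 times as high. Mean levels were 5.36 ± 0.838 CPM for BM-Treg against 1.51 ± 0.335 CPM for SP-Treg (SD, n = 4 each), and the log2 fold change of 1.83 (SE 0.28) was the largest of the 10.

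In the pentose phosphate pathway 8 of 9 other genes were tested, edgeR called 1 higher and 1 lower, and the median log2 fold change was 0.12. H6pd, which encodes the glucose 6-phosphate dehydrogenase of the endoplasmic reticulum, stood at 60.3, 54.9, 53.0 and 59.6 CPM in BM-Treg and at 30.1, 37.6, 34.5 and 32.2 CPM in SP-Treg. The tissues lay far apart (log2 fold change 0.76, SE 0.11, edgeR adjusted p = 0.00116), and H6pd was called under all 18 other settings with a test, with an adjusted p from 1.31e-08 to 0.0274. Rpe, which encodes ribulose phosphate epimerase, was lower in BM-Treg, with 30.4, 29.96, 27.0 and 25.2 CPM in BM-Treg and 46.0, 36.7, 36.5 and 39.6 CPM in SP-Treg. The libraries did not overlap, with SP-Treg replicate 1 the highest (log2 fold change -0.49, SE 0.12, edgeR adjusted p = 0.0198). The call was lost without BM-Treg replicate 3 (adjusted p by edgeR 0.0619) or SP-Treg replicate 1 (0.0668), and over 18 other settings the adjusted p ran from 0.00370 to 0.176. Rpe overlaps Kansl1l on the other strand, which was also called lower (log2 fold change -0.46, edgeR adjusted p = 0.0484), and how reads were shared between them was not tested.

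The genes of this list with the highest mean FPKM were not called. G6pdx, its entry enzyme in the cytosol, had 25.5 ± 2.64 FPKM in BM-Treg and 22.5 ± 1.36 FPKM in SP-Treg. The transaldolase gene Taldo1 had 18.7 ± 3.88 and 16.7 ± 1.66 FPKM, and the dehydrogenase gene Pgd had 17.9 ± 2.05 and 16.0 ± 4.19 FPKM (SD, n = 4 each). Transketolase itself, Tkt, had 18.9 ± 2.52 and 14.3 ± 1.48 FPKM, far above its relative Tktl1 with 2.29 ± 0.395 and 0.613 ± 0.120 FPKM (SD, n = 4 each). The other relative, Tktl2, had 0 counts in every library.

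B3galt5 (ENSMUSG00000074892, chr16:96235801-96319859, plus strand) encodes a galactosyltransferase that builds type 1 glycan chains, known mainly from the gut. It stood at 7.28, 9.26, 5.78 and 3.59 CPM in BM-Treg and at 2.95, 2.47, 2.01 and 1.39 CPM in SP-Treg. BM-Treg replicate 4, the only one of batch 3, was the lowest of its tissue and 1.22 times the highest SP-Treg library. Mean levels were 6.48 ± 2.40 CPM for BM-Treg against 2.20 ± 0.662 CPM for SP-Treg (SD, n = 4 each), giving a log2 fold change of 1.56 (SE 0.33). Within batch 3 the log2 fold change was 0.72, and without BM-Treg replicates 1 and 2 it was 1.13.

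Of 11 relatives of B3galt5 listed 8 were tested and edgeR called 0, with 1 at an unadjusted p under 0.05 and 0 by DESeq2, limma-voom or limma-trend. Their median log2 fold change was -0.08. B3gnt2, the main enzyme that extends poly-N-acetyllactosamine chains, had the highest level with 122 ± 25.3 FPKM in BM-Treg and 109 ± 19.1 FPKM in SP-Treg, beside 3.14 ± 1.19 and 0.797 ± 0.316 FPKM for B3galt5 (SD, n = 4 each). B3gnt2 overlaps Commd1 on the same strand, which was called lower (log2 fold change -1.03, edgeR adjusted p = 0.00218), so its value is uncertain. B3galnt2, which acts on dystroglycan, had 5.43 ± 0.970 and 6.03 ± 1.86 FPKM, and B3gnt5, which starts the lacto-series of glycolipids, had 5.26 ± 1.32 and 6.09 ± 2.71 FPKM (SD, n = 4 each).

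Bco2 (ENSMUSG00000032066, chr9:50533087-50555181, minus strand) encodes a mitochondrial dioxygenase that cleaves carotenoids. It stood at 4.38, 3.43, 3.46 and 4.93 CPM in BM-Treg and at 2.73, 0.637, 1.09 and 1.10 CPM in SP-Treg. BM-Treg libraries lay close together, while SP-Treg replicate 1 was well above the other SP-Treg libraries, and the closest libraries were 1.26 times apart. Mean levels were 4.05 ± 0.734 CPM for BM-Treg against 1.39 ± 0.920 CPM for SP-Treg (SD, n = 4 each), giving a log2 fold change of 1.52 (SE 0.40) that was 2.10 without SP-Treg replicate 1. Per length Bco2 had 2.02 ± 0.3002 FPKM in BM-Treg and 0.688 ± 0.511 FPKM in SP-Treg (SD, n = 4 each).

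Most other genes of carotenoid and retinoid metabolism did not pass the filter on low counts. Of 12 listed 11 were matched and 2 were tested, Rdh10 and Scarb1. Rdh10, which oxidises retinol, had 3.48 ± 0.872 FPKM in BM-Treg and 2.78 ± 0.689 FPKM in SP-Treg. Scarb1, a receptor that takes up carotenoids and lipoproteins, had 1.13 ± 0.382 and 1.71 ± 0.742 FPKM (SD, n = 4 each). edgeR called 0 of the 2, with 0 at an unadjusted p under 0.05 and 0 by DESeq2, limma-voom or limma-trend, and their median log2 fold change was -0.25. Rpe65, the isomerase of the eye, had 0 counts in every library.

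Over the 10 lists together, 94 of 95 related genes were matched, 56 were tested and 5 were called (8.93%), 2 higher and 3 lower, beside 8.75% of all genes tested. Their median log2 fold change was 0.04, beside -0.01 over all genes tested, and it ran from -1.42 for Six5 to 1.21 for Chrne. Another 38 were matched and did not pass the filter, of which 15 had 0 counts in every library. In batch 3 alone, without a test, the 5 genes called had log2 fold changes of 0.84 for H6pd, -0.64 for Rpe, -0.59 for Agrn, 0.72 for Armc5 and -1.80 for Cdk5r1. The signs were those over all libraries, but these libraries are part of the same contrast, so this is no separate result. For H6pd, Rpe, Agrn and Armc5, whose libraries did not overlap, the sign was fixed. With batch as a term in edgeR, H6pd alone of the 5 was called (adjusted p = 0.0274), in a fit that called 1.93% of all genes tested. H6pd was also the only related gene called without BM-Treg replicates 1 and 2 (edgeR adjusted p = 0.0233).

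**Figure D2:**
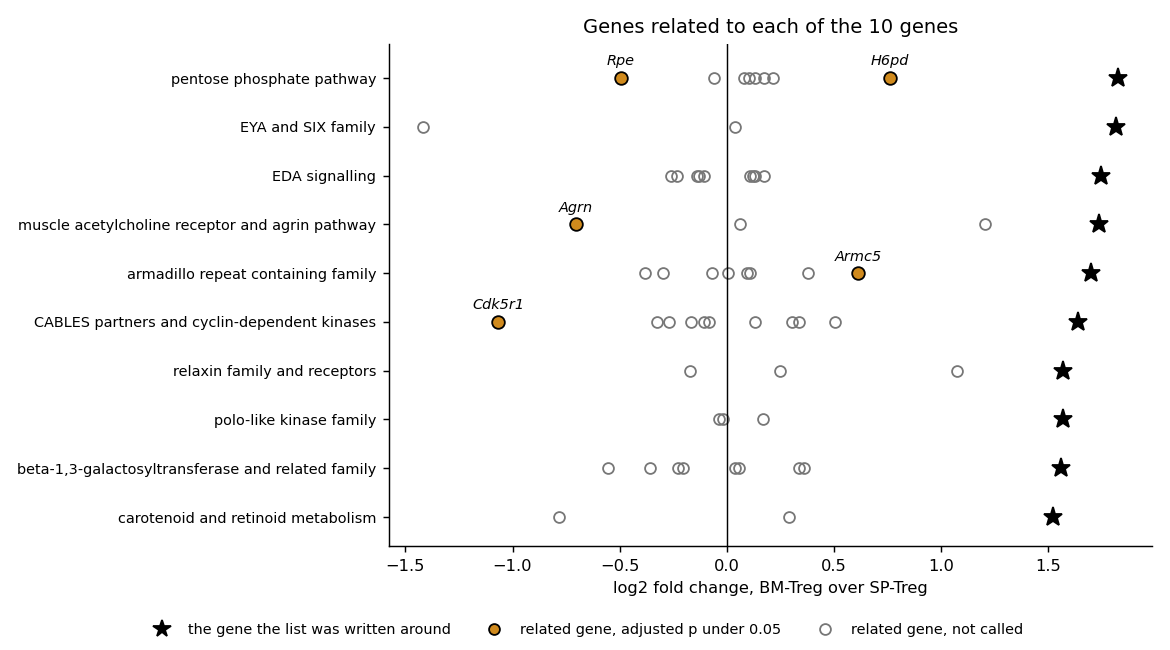
Log2 fold change, BM-Treg against SP-Treg, of each related gene tested in the 10 lists (circles, filled where edgeR called the gene), with the gene each list was written around as a star. The 56 related genes centre on 0.04, whereas the 10 genes, chosen for this difference, lie between 1.52 and 1.83.

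The 10 genes spanned a wide range of levels. Ordered by mean FPKM in BM-Treg, Rln3 came first, followed by Rapsn, Eya2, Plk2, B3galt5, Tktl1, Bco2, Cables1, Armc2 and Edaradd. Of the neighbours in this order, only Rln3 and Rapsn, and Bco2 and Cables1, had all libraries apart, and the ranges of the other neighbours overlapped. In SP-Treg the order was the same except that Bco2 came before Tktl1, and only Rln3 and Rapsn had all libraries apart. Among protein-coding genes tested, Rapsn was above 57.2% in BM-Treg and 27.8% in SP-Treg. At the low end Armc2 was above 9.20% and 1.31% of them, and Edaradd above 7.56% and 0.887%. The ratio of mean levels stayed within 2.92 and 3.55 for all 10. The expected counts behind these values ran from 0 for Cables1 in SP-Treg replicate 2 to 2821 for Rln3 in BM-Treg replicate 3.

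The libraries did not share 1 pattern within a tissue. In BM-Treg, replicate 4 had the highest value of 6 of the genes, replicates 2 and 3 of 2 each, and replicate 1 of 0. In SP-Treg, replicate 2 had the lowest value of 5 genes, namely Tktl1, Edaradd, Cables1, Plk2 and Bco2. In batch 3 alone all 10 were higher in BM-Treg replicate 4 than in every SP-Treg library, which was fixed by their selection for libraries that do not overlap. The log2 fold changes there ran from 0.72 for B3galt5 to 2.13 for Eya2, and 7 of the 10 were larger than over all libraries. Between these were 1.46 for Rln3, 1.79 for Tktl1, 1.82 for Bco2, 1.85 for Cables1, 1.98 for Armc2, 1.99 for Rapsn, 2.01 for Plk2 and 2.10 for Edaradd. BM-Treg replicate 4 is a single library, so these values have no test. When each library was left out in turn, the log2 fold change of any of the 10 ran from 1.23 to 2.10, and none moved by 1.5 times. Without BM-Treg replicates 1 and 2 it ran from 1.13 for B3galt5 to 2.05 for Rapsn.

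**Figure D3:**
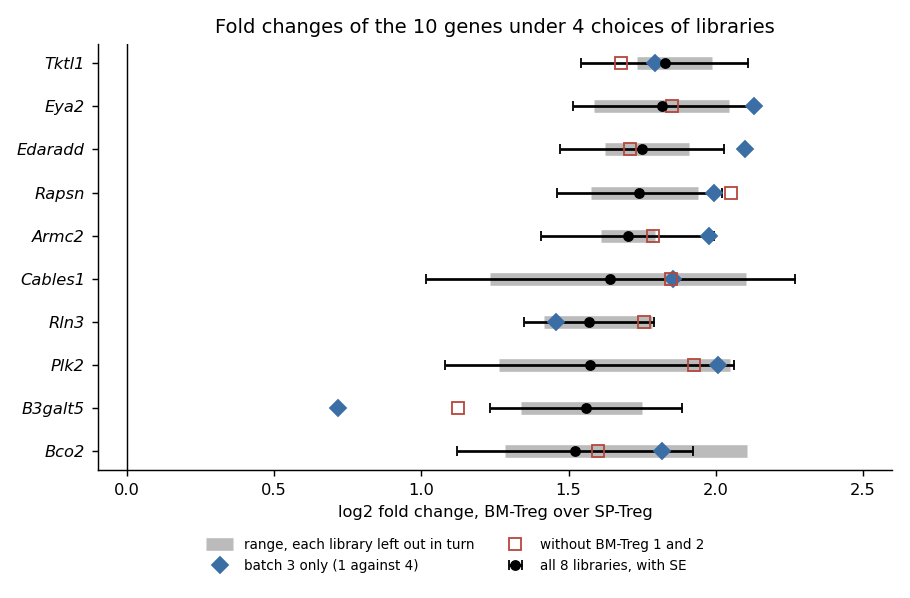
Log2 fold change of each of the 10 genes over all libraries with its SE, beside the range with each library left out in turn (grey bar), the value in batch 3 alone (diamond, BM-Treg replicate 4 against 4 SP-Treg libraries) and the value without BM-Treg replicates 1 and 2 (square). All values lie above 0, which was fixed by the choice of genes whose libraries do not overlap, and B3galt5 in batch 3 alone, at 0.72, is the lowest.

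Genes of other cell types were measured beside the 10, as summed CPM of fixed marker lists. Several lists were highest in SP-Treg replicate 2 or 3 and low in SP-Treg replicate 1. The erythroid list, of which 5 of 7 genes were matched and Hba-a2 was the most abundant, summed to 4.81, 9.66, 7.66 and 8.50 CPM in BM-Treg and to 1.26, 62.1, 129 and 78.7 CPM in SP-Treg. The B cell list of 5 genes, led by Cd79b, summed to 12.1, 10.98, 10.8 and 13.9 CPM in BM-Treg and to 6.32, 95.2, 19.98 and 15.6 CPM in SP-Treg. SP-Treg replicate 2 stood apart in the B cell list. edgeR called 0 of the 3 erythroid genes tested (3 at an unadjusted p under 0.05, 2 by DESeq2, 0 by limma-voom and limma-trend) and 0 of the 4 B cell genes tested (2 at an unadjusted p under 0.05, 1 by DESeq2, 0 by limma-voom and limma-trend). Without SP-Treg replicate 1 edgeR called all 3 erythroid genes lower in BM-Treg, with an adjusted p of 0.000677 for Hba-a1, 0.000777 for Hba-a2 and 0.0159 for Alas2. Over their other settings, the adjusted p ran up to 0.627, 0.853 and 0.594.

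The plasma cell list, with 3 of 4 genes matched and led by Igj, summed to at most 0.394 CPM in BM-Treg and to 0.585, 25.2, 9.70 and 6.24 CPM in SP-Treg. For the 8 genes of neutrophils and their precursors, led by Ngp and with Ly6g at 0 in every library, the sums were 2.41, 4.29, 1.31 and 9.89 CPM in BM-Treg and 0.216, 16.9, 8.86 and 6.67 CPM in SP-Treg. The 6 genes of monocytes and macrophages, led by Lyz2, summed to 19.5, 19.1, 13.4 and 13.9 CPM and to 7.25, 27.2, 28.0 and 17.8 CPM. SP-Treg replicate 2 was the highest in the plasma cell and neutrophil lists. The 2 CD8 T cell genes, led by Cd8b1, summed to 12.6, 11.8, 12.1 and 10.8 CPM in BM-Treg and to 13.2, 41.0, 22.7 and 16.6 CPM in SP-Treg, and Cd8a was called lower in BM-Treg (log2 fold change -2.99, SE 0.69, edgeR adjusted p = 0.0293). This call was lost without BM-Treg replicate 1 (adjusted p by edgeR 0.102), 2 (0.0656), 3 (0.102) or 4 (0.0904), with a batch term (0.270) and by limma-voom (0.148), and it held in 9 of 18 other settings (adjusted p from 0.000813 to 0.270). The 4 NK cell genes, led by Eomes, reached a sum of at most 0.482 CPM over BM-Treg against 4.54 CPM over SP-Treg.

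Other lists hold markers of cells of the marrow. The 5 genes of haematopoietic progenitors, led by Meis1, summed to 3.72, 3.75, 2.36 and 2.34 CPM in BM-Treg and to 1.51, 3.90, 2.42 and 1.76 CPM in SP-Treg. Meis1 itself stood at 2.90, 1.71, 1.05 and 1.92 CPM in BM-Treg and at 0.718, 0.876, 0.919 and 0.514 CPM in SP-Treg. Like the 10 genes, it had every BM-Treg library above every SP-Treg library (log2 fold change 1.32, SE 0.44, edgeR adjusted p = 0.0794, and 1.36 in batch 3 alone), and it was not called under any of 17 other settings (adjusted p from 0.0531 to 0.436). The other 4 genes of the list had lower means in BM-Treg than in SP-Treg, with overlapping libraries: Flt3 had 0.781 ± 0.668 against 0.883 ± 0.673 CPM (SD, n = 4 each) and a log2 fold change of -0.12, and Kit, Cd34 and Gata2 did not pass the filter. The 5 megakaryocyte genes, led by Gp1ba, summed to 2.46, 2.55, 2.01 and 4.18 CPM and to 1.80, 2.87, 3.26 and 1.39 CPM, and the 5 basophil and mast cell genes, with Fcer1a at 0, to at most 0.514 CPM in any library. The sums overlapped between the tissues in each of these lists. The 5 stromal and endothelial genes, led by Pecam1, summed to 73.4, 57.2, 48.4 and 52.4 CPM and to 41.3, 48.3, 53.8 and 52.8 CPM. The 4 genes of plasmacytoid dendritic cells, led by Ccr9, which T cells also express, summed to 39.5, 29.6, 33.0 and 39.8 CPM and to 8.76, 22.1, 42.0 and 32.7 CPM. The part of any of these cells in the levels of the 10 genes was not tested. Without SP-Treg replicate 2, where several of the lists were highest, the log2 fold changes of the 10 ran from 1.23 for Cables1 to 1.94 for Rapsn, and 5 were higher and 5 lower than over all libraries.

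The genes next to the 10 on the chromosomes were not used to choose them. On each side the nearest gene that passed the filter was taken, 20 in all, of which 9 had a positive log2 fold change and the median was -0.02. edgeR called 1 (5%), beside 8.75% of all genes tested, with 4 at an unadjusted p under 0.05, beside 23.3% of all genes tested. Values ran from -1.19 for Dscam, a cell adhesion gene 272219 bases from B3galt5, to 0.50 for Sesn1. Distances differed widely, from 491 bases for Il27ra to 1024835 bases for Gpbp1 beyond Plk2. Another 4 genes overlap one of the 10: Gm13778 overlaps Rapsn, Gm11460 overlaps Eya2, and Mir1901 and AC100751.1 overlap Cables1. None of the 4 passed the filter, and none had over 17 counts in a library.

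The neighbour called was Sesn1, which encodes a stress-induced sestrin that restrains mTORC1 and lies 6565 bases from Armc2 on the other strand. It stood at 185, 142, 142 and 151 CPM in BM-Treg and at 101, 114, 112 and 110 CPM in SP-Treg. BM-Treg replicate 1 was the highest, and the libraries did not overlap (log2 fold change 0.50, SE 0.11, edgeR adjusted p = 0.00881). Sesn1 was called under 16 of 18 other settings, with an adjusted p from 0.000238 to 0.155, and was not called with batch as a term in edgeR (adjusted p = 0.155) or without BM-Treg replicates 1 and 2 (edgeR adjusted p = 0.0709). Pts, which encodes an enzyme of tetrahydrobiopterin synthesis and lies 4445 bases from Bco2, was not called by edgeR (log2 fold change 0.44, SE 0.15, adjusted p = 0.0832). It was called by edgeR without SP-Treg replicate 4 (adjusted p = 0.0151). With all libraries, it was called by DESeq2 (adjusted p = 0.0468) and by edgeR without a filter (adjusted p = 0.0428). Over 18 other settings its adjusted p ran from 0.0151 to 0.296.

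**Figure D4:**
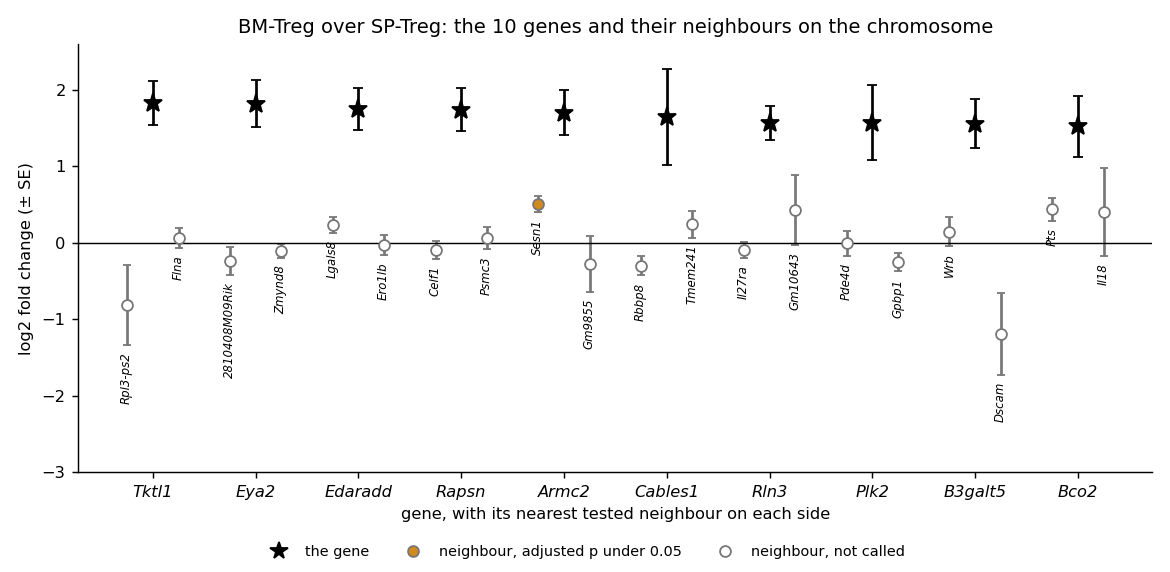
Log2 fold change, BM-Treg against SP-Treg, of each of the 10 genes (stars) and of the nearest gene past the filter on either side (circles, filled where edgeR called the gene), each with its SE. The neighbours lie between -1.19 and 0.50 and the 10 genes between 1.52 and 1.83.

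The deposited transcript estimates listed 30 transcripts of the 10 genes, of which 20 had counts. For 4 genes 1 transcript was listed, and for 5 genes more than 1 had counts. Such estimates are uncertain where transcripts share most of their bases. For Cables1, ENSMUST00000171109 held 100%, 100%, 22.7% and 80.5% of the counts of the gene in BM-Treg replicates 1 to 4 and 0% in SP-Treg replicates 1, 3 and 4. The other, ENSMUST00000046948, held the rest: 0%, 0%, 77.3% and 19.5% in BM-Treg and 100% in those SP-Treg libraries. SP-Treg replicate 2 had no counts for either, and the counts assigned to ENSMUST00000046948 in the other SP-Treg libraries were 36, 21 and 20. Both encode a protein.

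The main coding transcript of Armc2, ENSMUST00000160262, held 100%, 100%, 91.7% and 67.9% in BM-Treg and 100%, 100%, 33.4% and 0% in SP-Treg, with the rest assigned to a transcript that keeps an intron, ENSMUST00000105503. These shares differed as much within a tissue as between tissues. That of Eya2, ENSMUST00000063433, held 69.9 ± 13.5% in BM-Treg and 70.2 ± 19.8% in SP-Treg, and that of Rapsn, ENSMUST00000111446, 75.4 ± 11% and 78.6 ± 18.4% (SD, n = 4 each). For B3galt5, ENSMUST00000099497 held 83.2 ± 6.48% and 90.5 ± 3.30% (SD, n = 4 each). As shares of FPKM, which corrects for length, the values were lower: 35.8% and 50.7% for this transcript of B3galt5, 46.9% and 45.9% for that of Eya2, and 61.2% and 65.4% for that of Rapsn. In BM-Treg, ENSMUST00000153586 of B3galt5, which is not marked as coding, was then ahead with 61.6%. For Eya2, ENSMUST00000150669, also not marked as coding, had 47.7%, nearly level with the 46.9% of the coding transcript.

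**Figure D5:**
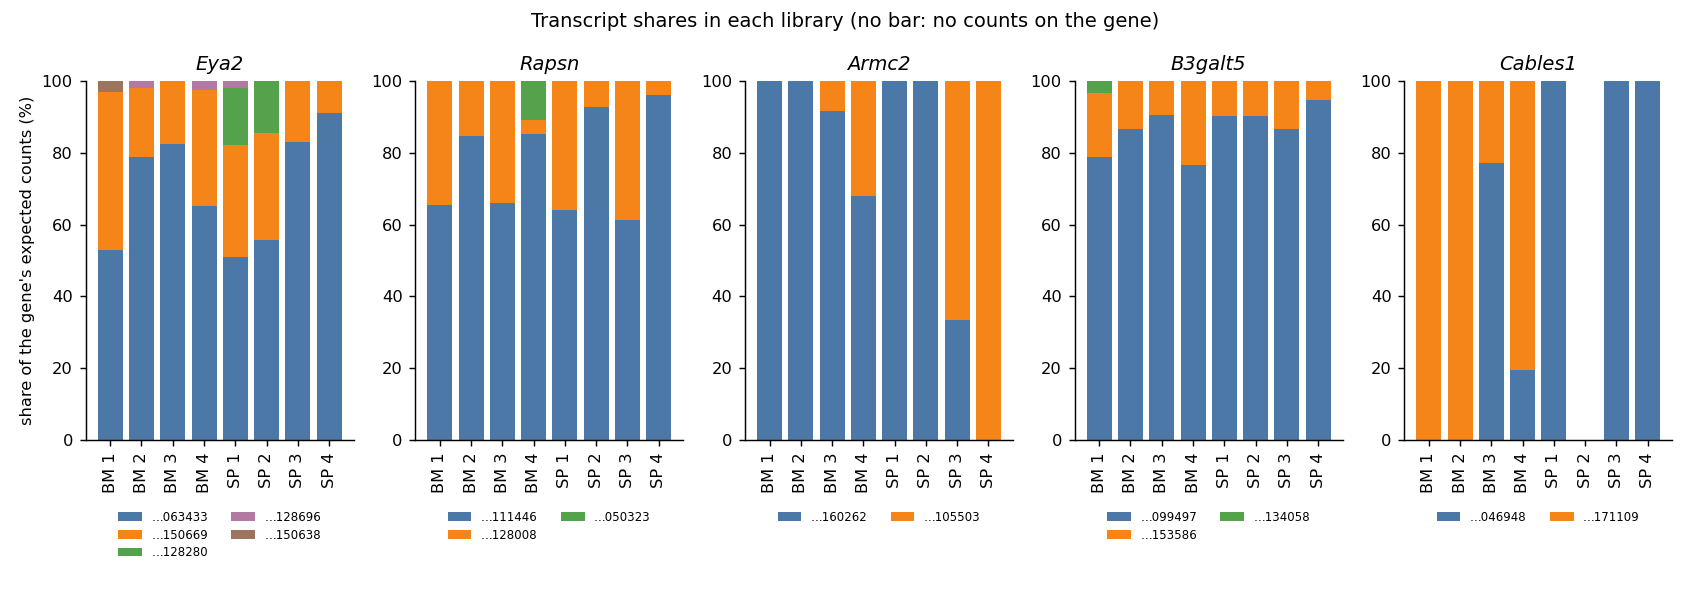
Share of the expected counts of a gene held by each transcript, in percent, in each BM-Treg and SP-Treg library, for genes with more than 1 transcript with counts. Cables1 shows ENSMUST00000171109 in BM-Treg only, and SP-Treg replicate 2, with no counts for this gene, has no bar.

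The genes whose level over the 8 libraries was most like that of the 10 were found by Pearson r with the mean standardised log2 CPM of the 10. They were Zfp36l2 (r = 0.986), which encodes a protein that promotes the decay of AU-rich mRNAs, the T cell kinase gene Camk4 (r = 0.983) and the synaptic vesicle gene Sv2a (r = 0.982). Zfp36l2 had 389 ± 34.7 CPM for BM-Treg against 151 ± 11.9 CPM for SP-Treg, and Camk4 had 407 ± 32.2 and 238 ± 19.1 CPM. Sv2a had 6.92 ± 0.311 and 2.79 ± 0.599 CPM (SD, n = 4 each). The tissues form separate clusters, and the r over all libraries are given as a description, with no p.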

How the data were processed

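RNA from 4 BM-Treg and 4 SP-Treg libraries was amplified by SPIA (NuGEN), without molecular identifiers, and read single-end over 80 nt. The authors deposited expected counts and FPKM per gene and per transcript. The submitters' notes name cutadapt 1.9, STAR 2.5.2a, RSEM 1.2.30 and GRCm38. The annotation release and the strand setting are not given in the sources used here.

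Expected counts were rounded to whole numbers, filtered by edgeR's filterByExpr on the groups (35.1% of genes passed), normalised by TMM and tested by edgeR's quasi-likelihood test (robust), with p adjusted by Benjamini-Hochberg over all genes tested and a threshold of 0.05. R 4.3.3, edgeR 4.0.16, limma 3.58.1, DESeq2 1.42.0, Python 3.11.15, pandas 2.3.3, numpy 2.4.6 and matplotlib 3.10.9 were used. Within each tissue, pairs of libraries were checked for duplicates (chi-square per degree of freedom 14.2 to 92.4). The limits of 3 counts cover counting error only.

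The members and lists were chosen with earlier results of these data known. Genes named are the 10, the listed genes that were called or among the 3 with the highest FPKM of their list, the neighbours, and the 3 most alike genes. Tkt and Six5, receptors of relaxin and of ectodysplasin and other listed genes named outside this rule were chosen after their values were seen. List entries Bco1, Hbb-bs, Hbb-bt and Mzb1 were not matched. Alternatives were DESeq2 size factors, DESeq2, limma-voom, limma-trend on log2 FPKM with pseudocounts of 1 and 0.1, no filter, a minimum of 10 counts per library, batch 3 by itself, batch as a term, a replicate block and each library left out. Leaving out BM-Treg replicates 1 and 2 was 1 alternative chosen after seeing the data.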

Additional observations from a re-analysis of the deposited data

Results flagged for a closer look

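Among 65 genes and 130 groups of 4 libraries examined, 6 had a highest or lowest library far from the other 3, by the size of its gap relative to the range of its group. Chance flags about 1 in 20 groups. Tktl1 stood at 2.01 CPM in SP-Treg replicate 3, with the others from 1.27 to 1.39 CPM. Taldo1 stood at 28.4 CPM in BM-Treg replicate 4, with the others from 16.9 to 18.4 CPM. Plk3 stood at 55.1 CPM in BM-Treg replicate 3, with the others from 36.8 to 37.9 CPM. Of the neighbours, Ero1lb stood at 27.0 CPM in SP-Treg replicate 1 (26.1 to 26.2 CPM in the others), Gm9855 at 2.34 CPM in BM-Treg replicate 1 (1.58 to 1.70 CPM) and Pts at 37.2 CPM in BM-Treg replicate 1 (43.1 to 43.9 CPM).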

How the results depend on the processing

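The count of related genes called, 5 over all libraries, was 1 (H6pd) with limma-trend on log2(FPKM + 1) or log2(FPKM + 0.1), 1 (H6pd) with a batch term, and 1 (H6pd) without BM-Treg replicates 1 and 2, an alternative chosen after seeing the data. It was 6, with Six5 added, with DESeq2, with limma-voom and without a filter. With a replicate block, the number in the labels as a factor, it was 2 (H6pd and Rpe). By the labels, libraries numbered 1, 2 and 3 differ in sex and batch between the tissues, and the sources name no pairs. Correlations between libraries of the same number, as deviations from their tissue means, were -0.106, 0.059, -0.176 and 0.04. Those between libraries of unlike number ran from -0.074 to 0.189. With 4 libraries per tissue such values cannot decide whether samples were paired. With 1 library left out it ran from 1 to 4. The count of neighbours called, 1 over all libraries, was 2 with DESeq2 or without a filter, 0 with a batch term and 0 without BM-Treg replicates 1 and 2, and ran from 1 to 2 with 1 library left out. Of the 10 genes, 5 were called with a batch term, beside 8 without one. With that term 1.93% of all genes tested were called, and nothing is read from the count for the 10, since they were chosen on this contrast. The cause of these changes was not tested. Fits with libraries left out also had fewer libraries, and that was not told apart from which library was left out. Of 188 log2 fold changes of the 10 genes under alternatives, 177 lay within 1 SD of the reported value, 11 moved further and 0 changed sign. The 188 include fits with 1 library left out, 8 per gene, which can hardly move by 1 SD. The choice of genes with libraries apart also favoured an unchanged sign, so stability is not read from this tally. Of the 11, 4 were on the log2(FPKM + 1) scale, where values ran from 0.54 to 1.65. On the other scales they ran from 0.70 to 2.59. The SD within tissues, on the log2 scale, was 1.44 for Cables1, whose 2.59 by limma-voom and 0.77 on the log2(FPKM + 1) scale, beside 1.64, therefore count as within 1 SD. Of 22 mean transcript shares, 8 moved by over 1 SD as shares of FPKM in place of expected counts. Means with 1 library left out cannot move that far and are not counted. Apart from Rln3, expected counts of the 10 genes in SP-Treg ran from 0 to 100 in a library.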
